A study of Homo sapiens with 9 samples.

Results

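Rab GTPases are small membrane switches, each of which marks a set of organelles and recruits the motors, tethers and fusion proteins that move cargo to the next compartment. A Rab binds membrane through a geranylgeranyl tail in its GTP-bound state, is loaded with GTP by an exchange factor (GEF), is switched off by a GTPase-activating protein (GAP) and is taken off the membrane by GDI. In keratinocytes, Rabs of endosomes and lysosomes carry internalised material, melanosomes among it, along the endocytic route, and Rabs of the Golgi and plasma membrane carry newly made proteins outward.

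The family was taken as every row of the deposited count table whose gene symbol is RAB followed by digits and at most 1 letter, without RAB27A, RAB27B, RAB32 and RAB38. This gave 59 genes of 20263 rows. The labels name HaCaT, an immortalised line of human epidermal keratinocytes, as the source of RNA in all 3 groups of 3 libraries. The glabridin group held melanosomes and was also treated with glabridin, an isoflavan of licorice root. The melanosome group held melanosomes alone, and the control group (titled Blank and labelled WT) received neither. The sources used here do not state the dose or time of glabridin, the source of the melanosomes, or whether replicates were separate cultures. The p-values therefore rest on a spread among libraries that could be technical. Per the series design, the groups were made to ask how glabridin promotes the breakdown of melanosomes. Comparing the melanosome group with control shows what differs when cells carry melanosomes, and comparing glabridin with melanosome libraries shows what differs when such cells receive the compound.

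Library totals ran from 39653425 to 46690787 counts, and the 59 Rab genes held between 0.344% and 0.399% of them. Control libraries lay apart from all others on the first principal component (83.1% of variance). The keratinocyte label was checked with 10 marker genes, among them KRT5 and KRT14, whose summed level was 8823 to 11601 CPM (counts scaled to library sizes adjusted by the TMM method) in glabridin, 11011 to 12011 CPM in melanosome and 13267 to 13440 CPM in control libraries. Pigment-cell transcripts divided the groups. The summed level of 10 melanocyte markers, each called as higher in melanosome than in control libraries, was 1626 to 3330 CPM in glabridin, 2944 to 3093 CPM in melanosome and 3.59 to 4.38 CPM in control libraries. PMEL made up most of these sums, at a mean of 1602 CPM in glabridin and 2109 CPM in melanosome libraries. For glabridin over melanosome, DCT (log2 change -2.76), MLANA (-1.10) and EDNRB (-0.63) were called as falls, and the other 7 markers were not called. TYR and TRPM1 had no count in any control library, and none of the 10 was at 0 in any melanosome or glabridin library. The highest melanocyte sum in the glabridin group, 3330 CPM, belonged to replicate 2, and so did the highest keratinocyte sum, 11601 CPM. Both sums were lowest in glabridin replicate 3. The labels do not say whether the melanosome and glabridin cultures held pigment cells, or RNA from them, besides HaCaT. The part of this RNA in the Rab values below was not tested, so "with melanosomes" names the labelled group and not a response of keratinocytes alone. In these bulk libraries, fewer cells of a type and less RNA per cell cannot be told apart.

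Levels of different genes were compared in the deposited TPM, which are per length. They have no TMM scaling, so they serve to compare genes within a group. The order of groups in TPM can differ from that in CPM. RAB1B averaged 466 CPM in glabridin, 465 CPM in melanosome and 470 CPM in control libraries. RAB7A averaged 481, 443 and 376 CPM in the same groups. RAB1B, which drives transport from the endoplasmic reticulum (ER) to the Golgi, was the most abundant member in all 3 groups, at 600.4 ± 32.3 TPM in glabridin, 683 ± 17.4 TPM in melanosome and 610.2 ± 12.5 TPM in control libraries (SD, n = 3 each, as throughout). RAB7A, the Rab of late endosomes and lysosomes, stood at 529 ± 19.4 TPM in glabridin, 553 ± 7.29 TPM in melanosome and 414 ± 8.03 TPM in control libraries. RAB25, the epithelial relative of RAB11, had 345 ± 16.2 TPM in glabridin, 399.8 ± 7.26 TPM in melanosome and 424 ± 4.87 TPM in control libraries. The levels of RAB1B, RAB7A and RAB25 did not overlap with each other in glabridin or melanosome libraries, whereas RAB25 and RAB7A overlapped in control. A mean of at least 100 TPM was reached by 13 members in glabridin and by 11 members in each of the other groups. A mean of at least 1 TPM was reached by 48 members in glabridin, 47 in melanosome and 45 in control libraries.

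Of the 59 members, 52 had enough counts to be tested. The 7 that were not tested had at most 6 counts in any library, and they were RAB3B (0 counts in all 9 libraries), RAB6C, RAB6D, RAB19, RAB37, RAB39A and RAB44. Among those just inside the filter, RAB41 had at most 23 counts in a library and RAB9B at most 36. Counts of RAB6A, RAB6C and RAB6D, which are near-identical in sequence, are uncertain between them, and so is RAB43, of whose exonic bases 79.3% also belong to the readthrough gene ISY1-RAB43 on the same strand. RAB24 shares 44.8% with MXD3, RAB5C 28.8%, RAB4B up to 27.4%, RAB13 24.8% and RAB4A 19.6% with an overlapping gene, and how such reads were counted is not given.

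In the melanosome group 13 Rab genes rose and 11 fell relative to control, and 28 were not called. A gene was called at an adjusted p under 0.05 in edgeR's quasi-likelihood test, with Benjamini-Hochberg adjustment over the 13912 genes tested. The 24 called members are 46.2% of those tested, against 62.5% of all genes tested (29.5% rose and 33.0% fell). The median log2 change of the members was -0.06, the same as over all genes at -0.06. Of the 52 tested members, 8 were called at a 2-fold or larger rise and 1 at a 2-fold or larger fall, against 13.8% and 5.83% of all genes. Such rises outnumbered such falls among all genes as well, at 1923 and 811. CPM values did not overlap between the groups for 34 members, against 76.1% of all genes. With library totals alone in place of TMM factors, which moved the median of all genes to 0.11, 22 members rose and 4 fell. The share of higher genes among all calls was then 66.0%, against 47.2% with TMM. Of the calls with TMM, 10 of the 13 rises and 4 of the 11 falls were made under every alternative tried, and 13 of the 28 members not called stayed so under every one. The number of falls was 6 without glabridin replicate 1 or control replicate 3, and 7 without melanosome replicate 2 or melanosome replicate 3.

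In the glabridin group 13 members rose, 7 fell and 32 were not called relative to the melanosome group. The 20 called members are 38.5% of those tested, against 43.9% of all genes tested (23.7% rose and 20.2% fell), and the groups' CPM values did not overlap for 29 members, against 50.2% of all genes. The median log2 change was 0.13 over the members and 0.01 over all genes. No member was called at a 2-fold or larger rise and 3 were called at such a fall, against 3.24% and 4.78% of all genes. Library totals alone turned this split round, to 10 rises and 19 falls, with the median of all genes at -0.17 and higher genes at 29.05% of all calls, against 54.0% with TMM. Of the calls with TMM, 9 of the 13 rises and 6 of the 7 falls were made under every alternative tried, and 13 of the 32 members not called stayed so. Without glabridin replicate 2 the number of falls was 11. Median transcript GC content differed between members that rose and members that fell. With glabridin over melanosome it was 41.0% in the members that rose and 56.7% in those that fell (Spearman's rho of GC with log2 change -0.31 over the 52 members, as a description). With melanosomes over control the medians were 50.5% and 41.0% (rho 0.19), and for glabridin over control 45.9% and 54.4% (rho -0.13). No GC values over all genes are given here, so these differences cannot be called particular to the Rab members. The part of GC in these calls was not tested. Glabridin over melanosome and melanosome over control share the melanosome libraries. Their values are therefore given side by side, and no likeness between them was computed.

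Set against control, glabridin libraries had 20 members higher and 10 lower, with 22 not called. The 30 called members are 57.7% of those tested, against 70.3% of all genes (37.6% rose and 32.7% fell). A rise of at least 2-fold was called for 6 members and such a fall for 2, against 16.2% and 11.4% of all genes. CPM values did not overlap between the groups for 32 members, against 73.2% of all genes. This comparison shares all its libraries with the others.

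**Figure D1:**
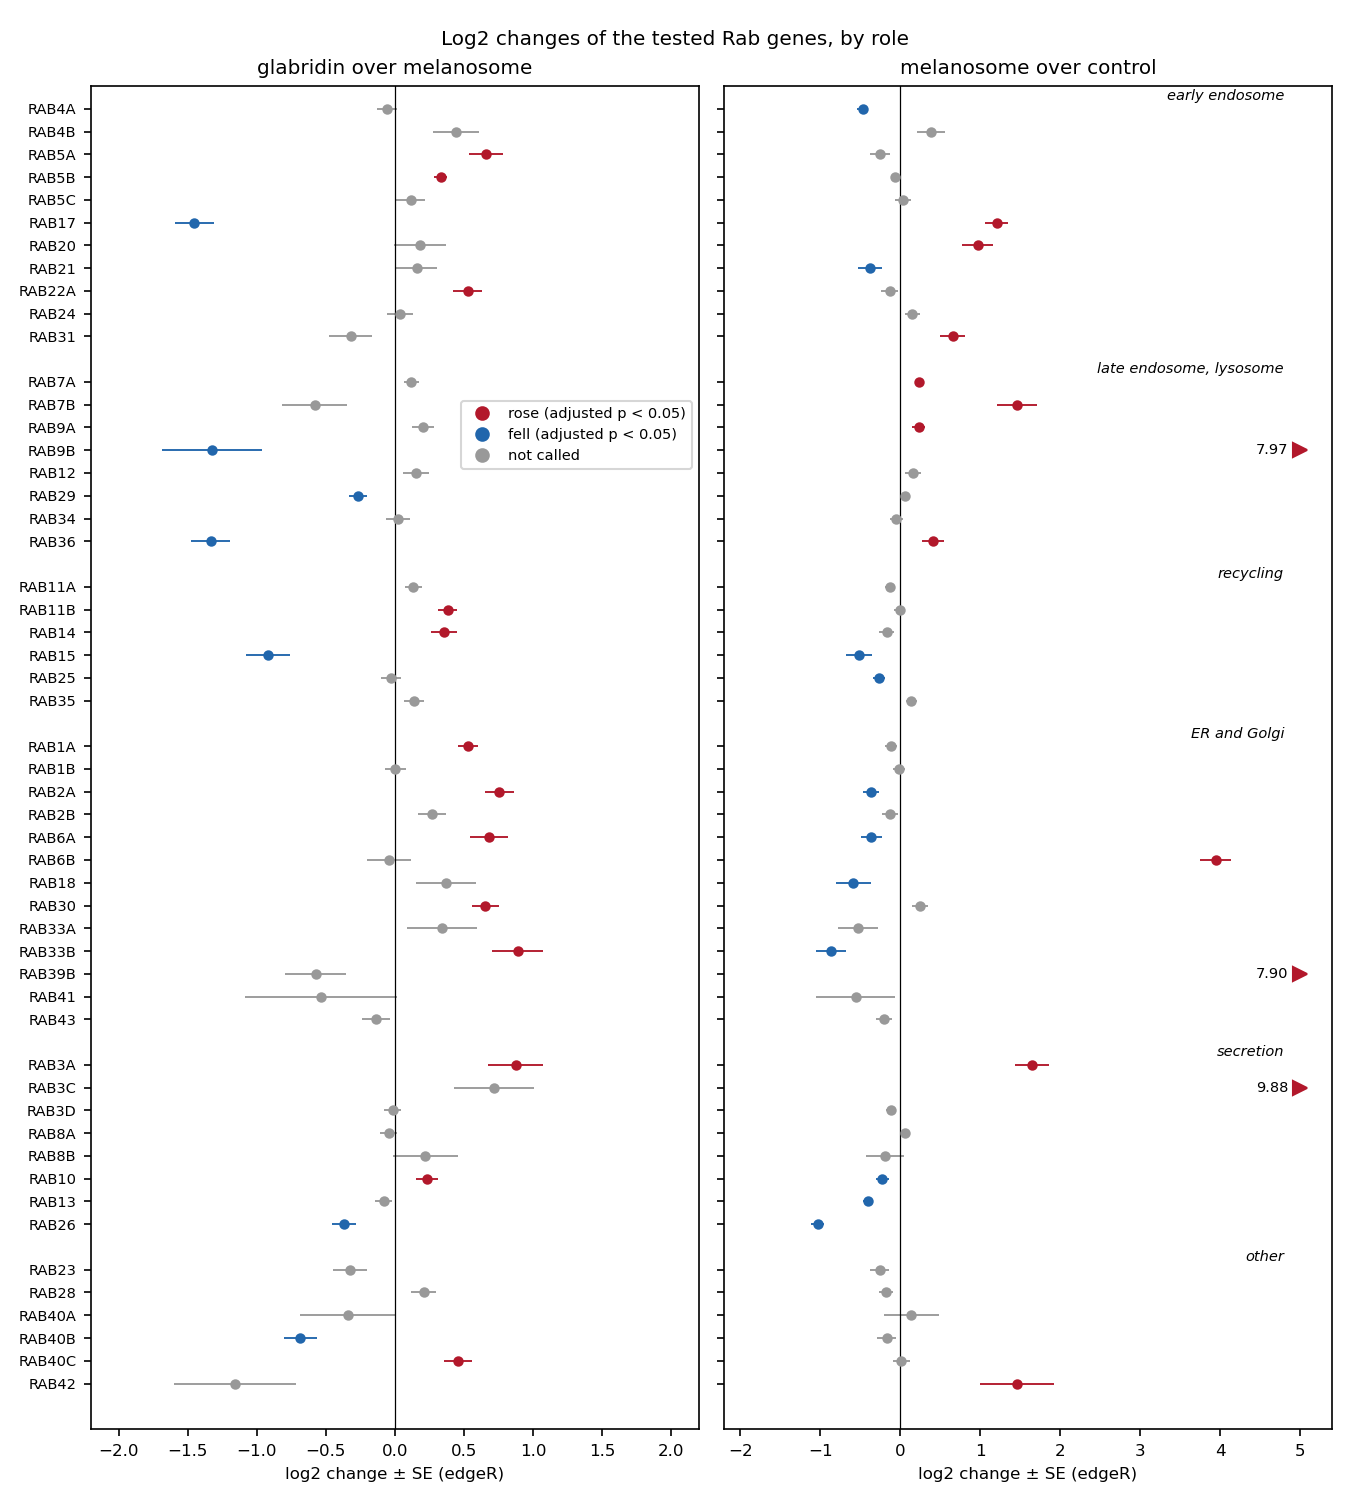
Log2 change ± SE of each of the 52 tested Rab genes, grouped by role from top to bottom, for glabridin over melanosome libraries (left) and melanosome over control libraries (right). Red points rose, blue points fell and grey points were not called; arrowheads at the right edge stand for fitted log2 changes of 7.97 (RAB9B), 7.90 (RAB39B) and 9.88 (RAB3C), which lie beyond the axis because control held 0 or 2 counts. With library totals alone the split becomes 10 rises and 19 falls on the left and 22 rises and 4 falls on the right.

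The 11 tested Rabs of early endosomes, the first sorting station after uptake, gave 3 rises and 1 fall with glabridin relative to the melanosome group, and 3 rises and 2 falls in the melanosome group relative to control, that is 36.4% and 45.5% called, against 43.9% and 62.5% of all genes. RAB17 (ENSG00000124839, chromosome 2, 237574322 to 237601614, GRCh38), a Rab mostly of epithelial cells that acts in apical and recycling traffic, had 3.79, 4.95 and 3.70 CPM in glabridin, 10.8, 12.2 and 11.0 CPM in melanosome and 4.83, 4.27 and 5.59 CPM in control libraries. Every melanosome library lay above every library of the other groups, which overlapped each other. The log2 change of RAB17 was -1.45 ± 0.14 (SE) for glabridin over melanosome (adjusted p = 2.32e-05) and 1.21 ± 0.14 for melanosome over control (adjusted p = 3.77e-05). Both calls were made under every alternative. RAB17 was not called between glabridin and control.

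RAB5A, RAB5B and RAB5C encode the isoforms of RAB5, which drives fusion of incoming vesicles with early endosomes. RAB5A had 65.8, 59.4 and 84.6 CPM in glabridin, 49.1, 42.8 and 41.0 CPM in melanosome and 54.2, 53.2 and 51.0 CPM in control libraries. All glabridin libraries were the higher ones, and the log2 change was 0.66 ± 0.12 over melanosome libraries (adjusted p = 0.00139), whereas the change of melanosome over control was -0.25 ± 0.12 and not called (adjusted p = 0.0908), though it was called without glabridin replicate 2 or glabridin replicate 3. RAB5B had 247, 251 and 242 CPM in glabridin, 194, 197 and 196 CPM in melanosome and 202, 205 and 207 CPM in control libraries. Its glabridin libraries stood apart from all others by more than the spread within any group, with a log2 change of 0.33 ± 0.05 over melanosome (adjusted p = 0.000267). For melanosome over control RAB5B changed by -0.06 ± 0.05, which was not called, and by 0.10 with library totals alone, which was. RAB5C had 104, 129 and 93.7 CPM in glabridin, 96.8, 98.1 and 107 CPM in melanosome and 102, 97.4 and 95.2 CPM in control libraries. The groups overlapped, and neither its change of 0.11 ± 0.10 for glabridin over melanosome nor that of 0.04 ± 0.10 for melanosome over control was called. With only the 2 groups compared, the second was 0.12 and called. RAB5A also passed the test for glabridin over control, at 0.41 ± 0.12 (adjusted p = 0.0112; 0.25 without glabridin replicate 3), and so did RAB5B, at 0.27 ± 0.05 (adjusted p = 0.000421).

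The other early endosomal members moved apart. RAB31, which acts between the trans-Golgi and endosomes, rose by 0.66 ± 0.16 on the log2 scale in melanosome relative to control libraries (adjusted p = 0.00392), and its mean was 23.6 ± 6.44 CPM in glabridin, 29.5 ± 1.15 CPM in melanosome and 18.7 ± 1.00 CPM in control libraries. RAB20, known from phagosome maturation, rose by 0.97 ± 0.19 in the same comparison (adjusted p = 0.00148), with 17.9 ± 5.14 CPM in glabridin, 15.8 ± 1.91 CPM in melanosome and 8.04 ± 1.08 CPM in control libraries. In both genes the highest glabridin library was replicate 2. The summed melanocyte markers (3330 CPM) and the summed keratinocyte markers (11601 CPM) were both highest in that library too. Of the 13 members that rose with melanosomes, 10 were highest in that library, while RAB9B and RAB36 were highest in replicate 1 and RAB42 in replicate 3. It was also the highest for 27 of the 52 tested members and for 39.8% of all genes. RAB4A, a Rab of fast recycling, fell by 0.47 ± 0.07 with melanosomes (adjusted p = 0.000274), and RAB21, a Rab of integrin traffic, fell by 0.38 ± 0.15 (adjusted p = 0.0443), a call lost under 12 of the 17 alternatives, among them each fit without 1 library other than glabridin replicate 2 or glabridin replicate 3. RAB22A, an endosomal relative of RAB5, rose by 0.53 ± 0.11 with glabridin over melanosome (adjusted p = 0.00233), a call lost in limma on log2(TPM + 1) and log2(TPM + 0.1). Each call given here or below as lost with library totals alone was also lost in both of these limma fits. RAB4B (4.74 ± 0.781 CPM in glabridin, 3.49 ± 0.456 CPM in melanosome and 2.65 ± 0.403 CPM in control libraries) was called only for glabridin over control, at 0.83 ± 0.17, and RAB24, a Rab of autophagosomes, was called in no comparison.

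Promoter windows from RefSeq (GRCh38.p14), each from 250 bases before to 50 bases after a gene start, were found for 47 of the 59 members. Some genes have several starts, so these members have 63 windows, and the 27305 genes of the table have 35116. Shares below are of genes with a match in any window. They were searched on both strands for 6 motifs: CACGTG (the E-box), GTCACGTG (an E-box with the flank of lysosomal genes, which overlaps the first), TCATGTG (the M-box of pigment genes), TGATGNAA, TGANTCA and the ER stress response element. CACGTG stood in 6 members (RAB4A, RAB5A, RAB21, RAB24, RAB29 and RAB31), or 12.8%, against 8.77% of all genes (9.52% of the members' windows against 7.26% of all windows). GTCACGTG stood in 5 of these 6, without RAB4A, or 10.6% against 2.93% (7.94% of windows against 2.40%). TCATGTG stood in RAB17 alone, or 2.13% against 3.59%. TGATGNAA stood in RAB28 (2.13% against 4.46%), TGANTCA in RAB3B, RAB5B, RAB13 and RAB34 (8.51% against 9.37%), and the ER stress response element in none (against 0.0916%). A match is a string of letters and says nothing of binding. The 250 bases before the RefSeq start are printed for 3 early endosomal genes called above, 5′ to 3′ along the gene's strand, with the matched bases in capitals. In RAB17 (chr2:237590735-237590984, minus strand) they match TCATGTG on the reverse strand, 21 bases before that start, which is not the outermost 5′ end of the gene: it lies 10880 bases inside the GENCODE gene whose coordinates are given above. RAB5A (chr3:19946847-19947096, plus strand) holds 2 overlapping matches of GTCACGTG, 1 on each strand, and RAB31 (chr18:9708051-9708300, plus strand) holds 1 on the reverse strand, 60 bases before the start. Their RefSeq starts lie 18 bases (RAB5A) and 136 bases (RAB31) inside the GENCODE genes.
RAB17: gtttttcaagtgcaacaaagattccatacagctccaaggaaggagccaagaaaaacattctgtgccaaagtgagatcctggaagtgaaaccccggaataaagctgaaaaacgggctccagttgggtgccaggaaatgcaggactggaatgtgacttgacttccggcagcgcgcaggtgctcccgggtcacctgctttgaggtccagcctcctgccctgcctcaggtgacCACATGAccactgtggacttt
RAB5A: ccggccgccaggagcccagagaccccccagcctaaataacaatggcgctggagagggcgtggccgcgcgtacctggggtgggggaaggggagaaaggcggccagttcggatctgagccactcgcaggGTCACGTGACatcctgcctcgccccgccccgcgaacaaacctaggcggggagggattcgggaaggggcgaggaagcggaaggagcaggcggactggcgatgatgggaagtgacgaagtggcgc
RAB31: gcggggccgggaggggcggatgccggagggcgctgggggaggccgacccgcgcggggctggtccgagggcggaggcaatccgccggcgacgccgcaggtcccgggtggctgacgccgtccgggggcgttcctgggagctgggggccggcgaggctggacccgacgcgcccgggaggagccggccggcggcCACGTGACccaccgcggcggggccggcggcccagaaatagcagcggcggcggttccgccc

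Among the 8 Rabs of late endosomes and lysosomes, where melanosomes and other cargo are broken down, 3 fell and none rose with glabridin relative to the melanosome group, and 5 rose and none fell in the melanosome group relative to control. The shares called, 37.5% and 62.5%, stand beside 43.9% and 62.5% of all genes. RAB7A, which recruits dynein, tethers and the fusion machinery to late endosomes, had 462, 510.5 and 471 CPM in glabridin, 431, 443 and 455 CPM in melanosome and 386, 375 and 366 CPM in control libraries. In CPM, no library of one group fell within the range of another. The log2 change was 0.24 ± 0.06 for melanosome over control (adjusted p = 0.00373) and 0.36 ± 0.06 for glabridin over control (adjusted p = 0.000178), while that of 0.12 ± 0.06 for glabridin over melanosome was not called (adjusted p = 0.103). With library totals alone this last change was -0.06. In TPM, RAB7A overlapped between glabridin (508 to 547) and melanosome libraries (545 to 559). RAB9A, which returns receptors from late endosomes to the trans-Golgi, had 33.4, 38.0 and 36.6 CPM in glabridin, 32.7, 30.7 and 30.4 CPM in melanosome and 27.4, 27.2 and 25.2 CPM in control libraries. These groups did not overlap in CPM either, with a log2 change of 0.23 ± 0.08 for melanosome over control (adjusted p = 0.024) and of 0.44 ± 0.08 for glabridin over control (adjusted p = 0.000519). In TPM, RAB9A overlapped between glabridin (40.9 to 47.3) and melanosome libraries (41.6 to 47.1). The call for melanosome over control was lost without melanosome replicate 1, melanosome replicate 2 or control replicate 3, and the change of 0.20 ± 0.08 for glabridin over melanosome was not called.

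RAB36 (ENSG00000100228, chromosome 22, 23145326 to 23164350) binds RILP-family adaptors and takes part in the positioning of late endosomes, and in mouse melanocytes in that of melanosomes. It had 3.19, 2.56 and 2.32 CPM in glabridin, 7.17, 7.06 and 6.14 CPM in melanosome and 4.65, 5.29 and 5.41 CPM in control libraries. Glabridin libraries were the lowest and melanosome libraries the highest, without overlap. The log2 change was -1.33 ± 0.14 for glabridin over melanosome (adjusted p = 4.09e-05) and -0.93 ± 0.14 for glabridin over control (adjusted p = 0.000189). For melanosome over control it was 0.41 ± 0.14 (adjusted p = 0.0233), a call that was lost without melanosome replicate 1, melanosome replicate 2 or control replicate 1.

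RAB9B and RAB7B are the scarcer paralogs of RAB9A and RAB7A. RAB9B (chromosome X, 103822322 to 103832228) had 16, 12 and 8 counts in glabridin, 34, 36 and 30 counts in melanosome and none in control libraries. In CPM these were 0.359, 0.302 and 0.175 in glabridin and 0.659, 0.844 and 0.602 in melanosome libraries. All melanosome libraries were above all glabridin ones, and control held no read. Set against 3 counts in the whole control group (0.0234 CPM), RAB9B was at least 11.8-fold higher in glabridin and at least 29.7-fold higher in melanosome libraries. Its fall with glabridin relative to the melanosome group was -1.32 ± 0.36 on the log2 scale (adjusted p = 0.0164) and was not called without melanosome replicate 2. RAB7B (chromosome 1, 205976740 to 206003461), which acts in transport from late endosomes to the trans-Golgi, had 3.14, 3.92 and 1.75 CPM in glabridin, 3.86, 4.50 and 4.78 CPM in melanosome and 1.60, 1.54 and 1.61 CPM in control libraries. Its rise with melanosomes was 1.47 ± 0.25 (adjusted p = 0.000522) and that of glabridin over control 0.89 ± 0.26 (adjusted p = 0.00963), while glabridin and melanosome libraries overlapped. RAB29, which recruits the kinase LRRK2 to membranes, fell by 0.26 ± 0.07 with glabridin over melanosome (adjusted p = 0.00816). RAB12, which sends transferrin receptor to lysosomes, was called only for glabridin over control, at 0.31 ± 0.10 (adjusted p = 0.0132) and not without control replicate 2, and RAB34, which acts in the positioning of lysosomes, was called in no comparison.

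**Figure D2:**
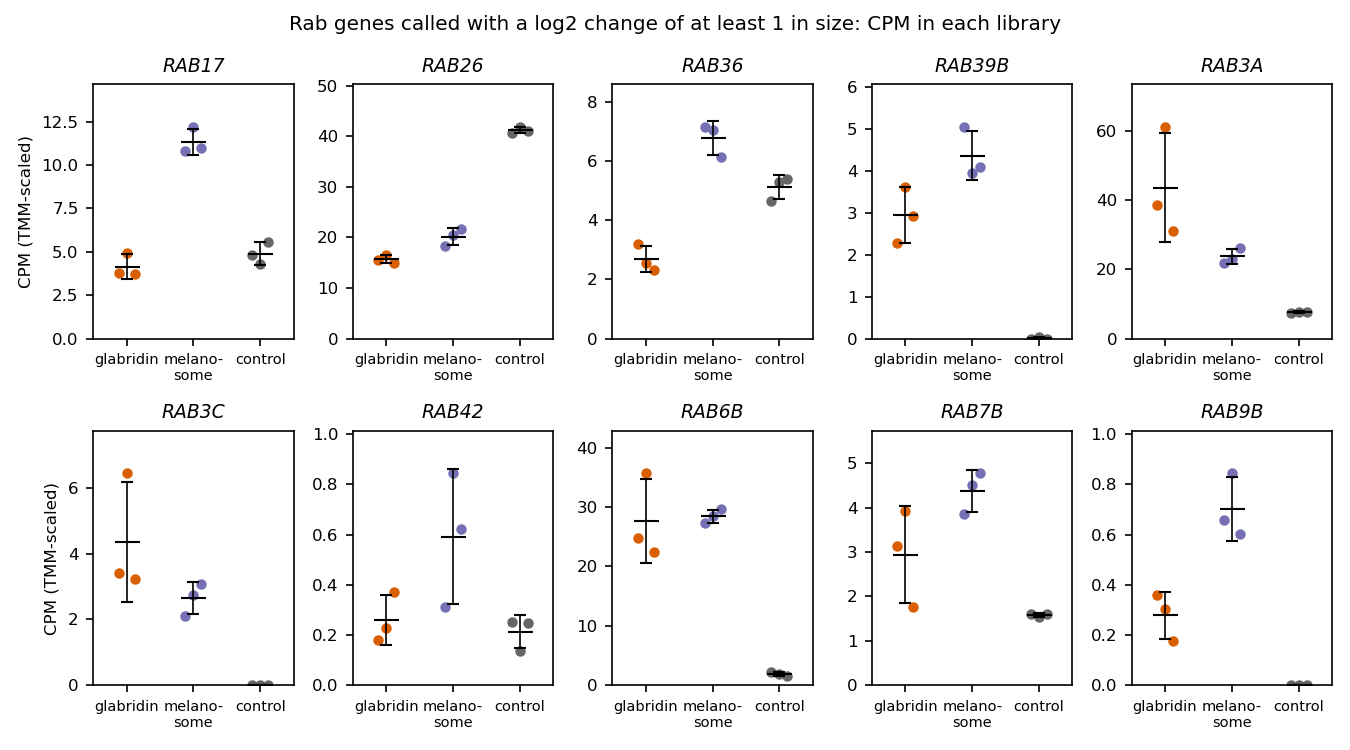
CPM on TMM-scaled library sizes in each library for the 10 Rab genes called with a log2 change of at least 1 in size, with points for libraries and bars for mean ± SD of 3. RAB3C, RAB9B and RAB39B are at or near 0 in control libraries, and RAB6B is at 1.58 to 2.13 CPM there. RAB17 is highest in the melanosome group, and RAB26 is lowest in the glabridin group.

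Of the 6 Rabs of recycling endosomes, 2 rose and 1 fell with glabridin relative to the melanosome group, and 2 fell and none rose in the melanosome group relative to control, that is 50% and 33.3% called, against 43.9% and 62.5% of all genes. RAB11A, the main Rab of the recycling endosome, had 174, 197 and 183 CPM in glabridin, 176, 165 and 164 CPM in melanosome and 188, 178 and 186 CPM in control libraries. Its changes of 0.13 ± 0.06 for glabridin over melanosome and -0.13 ± 0.06 for melanosome over control were not called, but the second was called without glabridin replicate 2. RAB11B, its close paralog, had 150.3, 155 and 138 CPM in glabridin, 106, 113 and 121 CPM in melanosome and 111, 119 and 112 CPM in control libraries. Glabridin libraries were above all others, with a log2 change of 0.38 ± 0.07 over melanosome (adjusted p = 0.00134) and 0.37 ± 0.07 over control (adjusted p = 0.000641). For melanosome over control RAB11B changed by -0.01 ± 0.07, which was not called, and by 0.16 with library totals alone, which was. RAB15, a Rab of early and recycling endosomes, fell in both steps, by 0.92 ± 0.16 in glabridin relative to melanosome (adjusted p = 0.00105) and by 0.51 ± 0.16 in melanosome relative to control libraries (adjusted p = 0.0153). Its mean was 10.5 ± 2.90 CPM in glabridin, 19.9 ± 1.39 CPM in melanosome and 28.4 ± 1.55 CPM in control libraries. The fall with melanosomes was not called with library totals alone, or without melanosome replicate 1 or control replicate 3. RAB25 fell by 0.26 ± 0.07 with melanosomes (adjusted p = 0.00967), a call lost with library totals alone, with RLE factors, in DESeq2 or without glabridin replicate 1, and by 0.29 ± 0.07 in glabridin relative to control libraries (adjusted p = 0.00464). RAB14, which acts between endosomes and the Golgi, rose by 0.36 ± 0.10 with glabridin over melanosome (adjusted p = 0.0117), again not with library totals alone, nor with only the 2 groups compared, nor without glabridin replicate 1 or melanosome replicate 3, and RAB35, of fast recycling, was called only for glabridin over control, at 0.28 ± 0.07.

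Of the 13 tested Rabs of the ER and Golgi, 5 rose and none fell with glabridin relative to the melanosome group, and 2 rose and 4 fell in the melanosome group relative to control, that is 38.5% and 46.2% called, against 43.9% and 62.5% of all genes. RAB1A, which acts with RAB1B between the ER and the Golgi, had 186, 175 and 212 CPM in glabridin, 135, 134 and 128 CPM in melanosome and 147, 139.6 and 143 CPM in control libraries. All glabridin libraries were above those of the other groups. The log2 change was 0.53 ± 0.07 for glabridin over melanosome (adjusted p = 0.00019) and 0.42 ± 0.07 for glabridin over control (adjusted p = 0.000357), and that of -0.11 ± 0.07 for melanosome over control was not called. RAB1B was called in no comparison. RAB2A, of Golgi traffic and autophagosome clearance, had 205 ± 31.7 CPM in glabridin, 121 ± 10.2 CPM in melanosome and 156 ± 4.30 CPM in control libraries. It rose by 0.76 ± 0.10 with glabridin over melanosome (adjusted p = 0.0002) and fell by 0.36 ± 0.10 in melanosome relative to control libraries (adjusted p = 0.0103). RAB6A, the Golgi Rab of retrograde transport, had 181 ± 40.5 CPM in glabridin, 113 ± 8.56 CPM in melanosome and 145 ± 11.0 CPM in control libraries, with a rise of 0.68 ± 0.14 (adjusted p = 0.00229) and a fall of 0.36 ± 0.14 (adjusted p = 0.0393) in these comparisons. The falls of RAB2A and RAB6A with melanosomes were not called with library totals alone, and that of RAB6A was also lost with RLE factors, in DESeq2 and without glabridin replicate 1, melanosome replicate 2, melanosome replicate 3, control replicate 1 or control replicate 3. RAB33B, a Golgi Rab that binds the autophagy protein ATG16L1, rose by 0.89 ± 0.19 with glabridin over melanosome (adjusted p = 0.00298) and fell by 0.87 ± 0.19 in melanosome relative to control libraries (adjusted p = 0.00221), both under every alternative. RAB30, another Golgi Rab, rose by 0.66 ± 0.10 with glabridin over melanosome (adjusted p = 0.000453), and RAB18, of lipid droplets and the ER, fell by 0.58 ± 0.22 with melanosomes (adjusted p = 0.0359), a call lost with library totals alone and without glabridin replicate 1, melanosome replicate 2, melanosome replicate 3 or any control library. In the glabridin group the highest library for RAB1A, RAB2A, RAB6A and RAB33B was replicate 3, and for RAB30 replicate 2. The summed melanocyte markers (1626 CPM) and the summed keratinocyte markers (8823 CPM) were both lowest in replicate 3. Of the 13 members that rose with glabridin over melanosome, 8 were highest in replicate 3, 4 in replicate 2 and 1 in replicate 1. Replicate 3 was the highest glabridin library for 17 of the 52 tested members and for 40.1% of all genes.

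The rises of this class with melanosomes came from RAB6B and RAB39B, which are known mainly from neurons. RAB6B (ENSG00000154917, chromosome 3, 133824239 to 133895836) had 24.8, 35.7 and 22.4 CPM in glabridin, 27.4, 28.4 and 29.6 CPM in melanosome and 2.13, 1.81 and 1.58 CPM in control libraries. Control libraries were far below both other groups, which overlapped. The log2 change was 3.95 ± 0.19 for melanosome over control, a 15.4-fold difference (adjusted p = 4.99e-08), and 3.90 ± 0.19 for glabridin over control (adjusted p = 3.28e-08). RAB39B (chromosome X, 155258241 to 155264589) had 2.29, 3.62 and 2.93 CPM in glabridin, 5.06, 3.96 and 4.10 CPM in melanosome libraries, and 2 counts in all in the control group. Its ratio to control was 188 in glabridin, with an exact 95% interval of 51.6 to 1554, and 282 in melanosome libraries, with an interval of 77.8 to 2337. These intervals cover counting error only. Both melanosome-laden groups were above control in every library, and RAB39B was not called between them. RAB41 and RAB33A were called in no comparison, RAB2B in none either, and RAB43 fell only in glabridin relative to control libraries, by 0.34 ± 0.10.

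Secretory Rabs, which dock vesicles at the plasma membrane, split by paralog. Of the 8 tested, 2 rose and 1 fell with glabridin relative to the melanosome group, and 2 rose and 3 fell in the melanosome group relative to control, that is 37.5% and 62.5% called, against 43.9% and 62.5% of all genes. RAB3A (ENSG00000105649, chromosome 19, 18196784 to 18204074), the Rab of synaptic and other regulated vesicles, had 38.7, 61.3 and 31.0 CPM in glabridin, 22.0, 23.2 and 26.3 CPM in melanosome and 7.26, 7.71 and 7.81 CPM in control libraries. The groups did not overlap, and the spread was widest in glabridin. The log2 change was 0.87 ± 0.20 for glabridin over melanosome (adjusted p = 0.00537), 1.65 ± 0.21 for melanosome over control (adjusted p = 7.61e-05) and 2.52 ± 0.22 for glabridin over control (adjusted p = 2.09e-06). RAB3C (chromosome 5, 58582221 to 58859394), a paralog of neurons, had 3.41, 6.46 and 3.22 CPM in glabridin, 2.11, 2.74 and 3.07 CPM in melanosome and no count in control libraries. Set against 3 counts in the whole control group, it was at least 183-fold higher in glabridin and at least 113-fold higher in melanosome libraries. Glabridin libraries were all above melanosome ones, but the gene was not called between them. The rise of RAB3A with glabridin over melanosome was 0.55 without glabridin replicate 2, its highest library.

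RAB8A, which carries cargo from the Golgi to the surface, had 70.1, 71.1 and 74.3 CPM in glabridin, 70.5, 74.5 and 77.2 CPM in melanosome and 70.2, 72.8 and 69.9 CPM in control libraries. The 3 groups overlapped, and its changes of -0.04 ± 0.06 for glabridin over melanosome and 0.06 ± 0.06 for melanosome over control were not called. With library totals alone both were called, at -0.22 and 0.23. RAB26 (ENSG00000167964, chromosome 16, 2140803 to 2154165), a Rab of secretory granules, had 15.6, 16.5 and 14.8 CPM in glabridin, 18.3, 20.5 and 21.7 CPM in melanosome and 40.6, 41.8 and 41.1 CPM in control libraries. The groups lay apart, glabridin lowest and control highest, with log2 changes of -0.37 ± 0.09 for glabridin over melanosome (adjusted p = 0.0059) and -1.03 ± 0.09 for melanosome over control (adjusted p = 2.69e-06). Both falls were called under every alternative. RAB13, of tight junctions, fell by 0.40 ± 0.06 with melanosomes (adjusted p = 0.000192) and by 0.48 ± 0.06 in glabridin relative to control libraries (adjusted p = 3.07e-05). RAB10, of polarised exocytosis, rose by 0.23 ± 0.08 with glabridin over melanosome (adjusted p = 0.0345) and fell by 0.22 ± 0.08 in melanosome relative to control libraries (adjusted p = 0.0313), calls that were lost under 15 and 11 of the 17 alternatives. The rise was lost without any 1 library other than glabridin replicate 2 (0.13 without glabridin replicate 3), and the fall (-0.14 without glabridin replicate 1) without glabridin replicate 1, melanosome replicate 2, melanosome replicate 3 or any control library. RAB3D and RAB8B were called in no comparison.

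**Figure D3:**
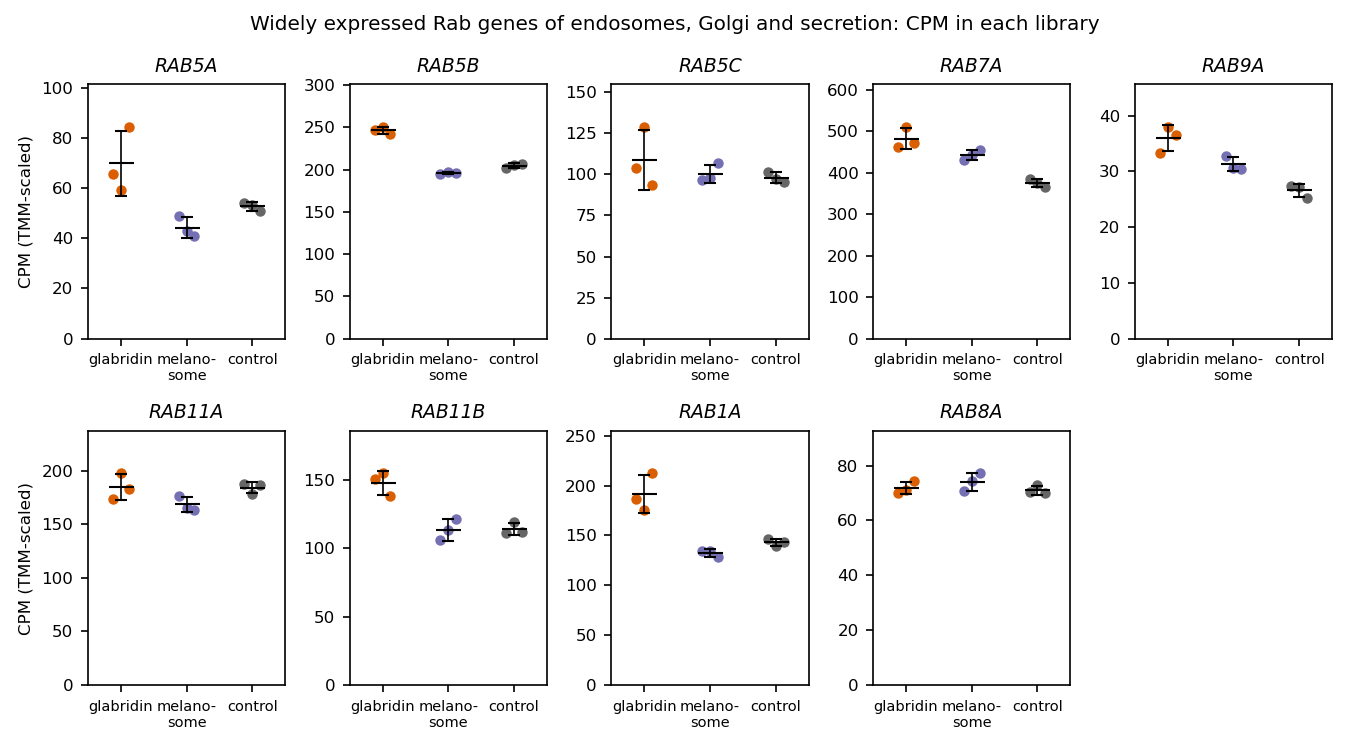
CPM on TMM-scaled library sizes in each library for 9 widely expressed Rab genes, with points for libraries and bars for mean ± SD of 3. RAB5A, RAB5B, RAB11B and RAB1A are highest in the glabridin group, RAB7A and RAB9A are lowest in control libraries, and the groups overlap in RAB5C and RAB8A.

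The remaining members form no class of traffic. RAB40B and RAB40C, Rabs that act as substrate adaptors of a ubiquitin ligase, differed in direction with glabridin over melanosome: RAB40B fell by 0.68 ± 0.12 (adjusted p = 0.0011), and RAB40C rose by 0.46 ± 0.10 (adjusted p = 0.00477), a call that was lost with library totals alone (0.26 without glabridin replicate 1). RAB40B had 5.19 ± 0.216 CPM in glabridin, 8.35 ± 1.18 CPM in melanosome and 9.38 ± 0.556 CPM in control libraries. RAB40C had 76.8 ± 11.8 CPM in glabridin, 56.0 ± 3.66 CPM in melanosome and 55.3 ± 1.27 CPM in control libraries. RAB42 (chromosome 1, 28592200 to 28595443) had 8, 9 and 17 counts in glabridin, 16, 36 and 31 counts in melanosome and 11, 6 and 10 counts in control libraries. In CPM these were 0.180, 0.226 and 0.372 in glabridin, 0.310, 0.844 and 0.622 in melanosome and 0.252, 0.136 and 0.247 in control libraries. Its rise with melanosomes was 1.46 ± 0.46 (adjusted p = 0.018) and was not called without melanosome replicate 2, melanosome replicate 3 or control replicate 2. RAB23, of cilia and Hedgehog signalling, fell by 0.58 ± 0.12 in glabridin relative to control libraries, and RAB28 and RAB40A were called in no comparison.

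The balance of paralogs was described as the share of each in the summed TPM of its numbered subfamily. RAB3A held 63.7 ± 6.52% in glabridin, 50.1 ± 1.93% in melanosome and 23.2 ± 1.05% in control libraries, and RAB3D held 35.2 ± 6.68%, 48.9 ± 2.05% and 76.8 ± 1.05% in the same groups. RAB3D itself was 36.2 ± 0.308 TPM in glabridin, 41.6 ± 0.753 TPM in melanosome and 39.8 ± 1.30 TPM in control libraries. On the TMM scale the order of groups differed. RAB3D averaged 61.7 CPM in glabridin, 62.4 CPM in melanosome and 67.5 CPM in control libraries, and it was called in no comparison. The share of RAB6B within RAB6 was 8.67 ± 3.67% in glabridin, 13.0 ± 1.30% in melanosome and 0.75 ± 0.117% in control libraries. RAB4B held 26.9 ± 4.03% of RAB4 in glabridin, 20.7 ± 2.76% in melanosome and 12.6 ± 1.92% in control libraries. Within RAB11, RAB11B held 64.6 ± 1.61% in glabridin, 60.6 ± 2.58% in melanosome and 58.6 ± 1.52% in control libraries. RAB5B stayed between 38.5% and 39.4% of RAB5 in the group means. RAB7B and RAB9B did not reach 2% of their subfamily, so RAB7A and RAB9A made up nearly all of it in each group. These shares are descriptions with no test.

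**Figure D4:**
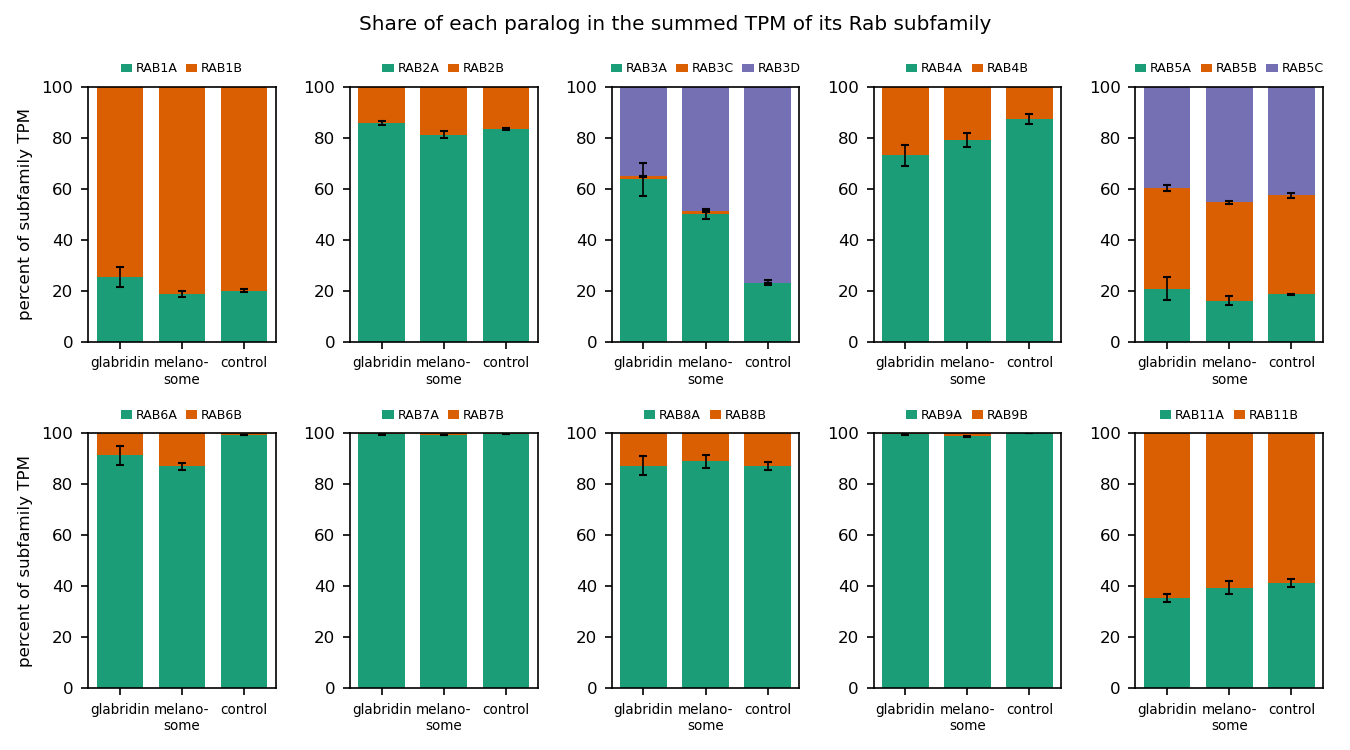
Mean percent of each paralog in the summed TPM of 10 Rab subfamilies in glabridin, melanosome and control libraries, with error bars for the SD of 3 libraries at each boundary. The RAB3A share is 63.7% in glabridin, 50.1% in melanosome and 23.2% in control libraries, while RAB1, RAB2, RAB5 and RAB8 differ less.

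The proteins that load, switch off, lipidate and read Rabs were counted from 4 lists of 123 genes, of which 122 were tested. With glabridin relative to the melanosome group 35 rose and 23 fell, and in the melanosome group relative to control 24 rose and 59 fell, that is 47.5% and 68.0% called, against 43.9% and 62.5% of all genes. With library totals alone there were 18 rises and 44 falls for glabridin over melanosome, and 34 rises and 30 falls for melanosome over control, so that both balances turned round. Without glabridin replicate 1 the rises with glabridin over melanosome numbered 21. By list, prenylation and GDI factors gave 5 rises and 0 falls of 9 with glabridin over melanosome and 1 rise and 2 falls with melanosomes over control. GEFs gave 9 rises and 7 falls of 34, and 6 rises and 17 falls, in these comparisons. GAPs gave 10 and 7 of 29, and 7 and 14. Effectors gave 11 and 9 of 50, and 10 and 26.

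The regulators with the largest changes included partners of the Rabs described above. TBC1D16, a GAP for RAB4A, had 114, 125 and 96.8 CPM in glabridin, 304, 325 and 332 CPM in melanosome and 45.6, 45.6 and 45.3 CPM in control libraries. Its groups lay far apart, with log2 changes of -1.52 ± 0.08 for glabridin over melanosome (adjusted p = 4.55e-07) and 2.81 ± 0.09 for melanosome over control (adjusted p = 2.94e-09). RABGGTB, the beta subunit of the enzyme that attaches the geranylgeranyl tail, had 53.1, 46.8 and 64.8 CPM in glabridin, 28.9, 29.9 and 28.0 CPM in melanosome and 27.5, 30.8 and 30.9 CPM in control libraries. It rose by 0.93 ± 0.11 with glabridin over melanosome (adjusted p = 9.22e-05). GOLGA2, a cis-Golgi tether that binds RAB1, rose by 0.94 ± 0.06 in the same comparison (adjusted p = 9.72e-07), and YIPF5, a Golgi membrane protein that binds Rabs, by 0.96 ± 0.14. The other large rises with glabridin were those of TBC1D23, a bridge between endosomal vesicles and the trans-Golgi, at 1.08 ± 0.22, and TBC1D10A, a GAP, at 0.99 ± 0.10. The falls were those of SYTL2 (-1.01 ± 0.09), which links secretory Rabs to the plasma membrane, of ANKFY1 (-0.89 ± 0.06), a RAB5 effector, and of RAB11FIP3 (-0.87 ± 0.08), a RAB11 effector. SYTL4, a relative of SYTL2, also fell with glabridin over melanosome (adjusted p = 0.000101), and averaged 3.86 ± 0.373 CPM in glabridin, 7.73 ± 0.512 CPM in melanosome and 10.7 ± 1.13 CPM in control libraries.

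Between melanosome and control libraries the largest falls were those of GCC2, a trans-Golgi tether (-2.38 ± 0.31), EEA1, the RAB5 effector that tethers early endosomes (-1.44 ± 0.31), DENND4C (-1.12 ± 0.19) and DENND4A (-0.99 ± 0.16), GEFs of RAB10, and RIN2, a GEF of RAB5 (-1.03 ± 0.08). The largest rises were those of LRRK2, the kinase that phosphorylates Rabs (5.55 ± 0.60), RAB3IL1, a GEF of RAB8 that also binds RAB3A (3.63 ± 0.25), PPM1H, the phosphatase that removes the LRRK2 mark, TBC1D16, and MICAL1, an actin oxidase bound by RAB1, RAB8 and RAB10 (2.75 ± 0.16). PPM1H averaged 9.23 ± 0.255 CPM in glabridin, 13.6 ± 1.29 CPM in melanosome and 1.71 ± 0.251 CPM in control libraries (adjusted p = 2.68e-08 for melanosome over control). LRRK2 had 4 counts in the control group, all in control replicate 2, so its value rests on that library: the fitted change was 9.16 without it, and 0.52 in limma on log2(TPM + 1). RAB3IL1 averaged 12.4 ± 2.67 CPM in glabridin, 11.6 ± 0.568 CPM in melanosome and 0.937 ± 0.364 CPM in control libraries. EEA1 averaged 7.12 ± 4.10 CPM in glabridin, 6.61 ± 0.526 CPM in melanosome and 17.9 ± 0.925 CPM in control libraries. The melanocyte marker sums given above divide the groups as LRRK2, RAB3IL1, PPM1H and MICAL1 do. TBC1D16 was likewise above control in every melanosome and glabridin library. The part of pigment-cell RNA in any of these rises was not tested.

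**Figure D5:**
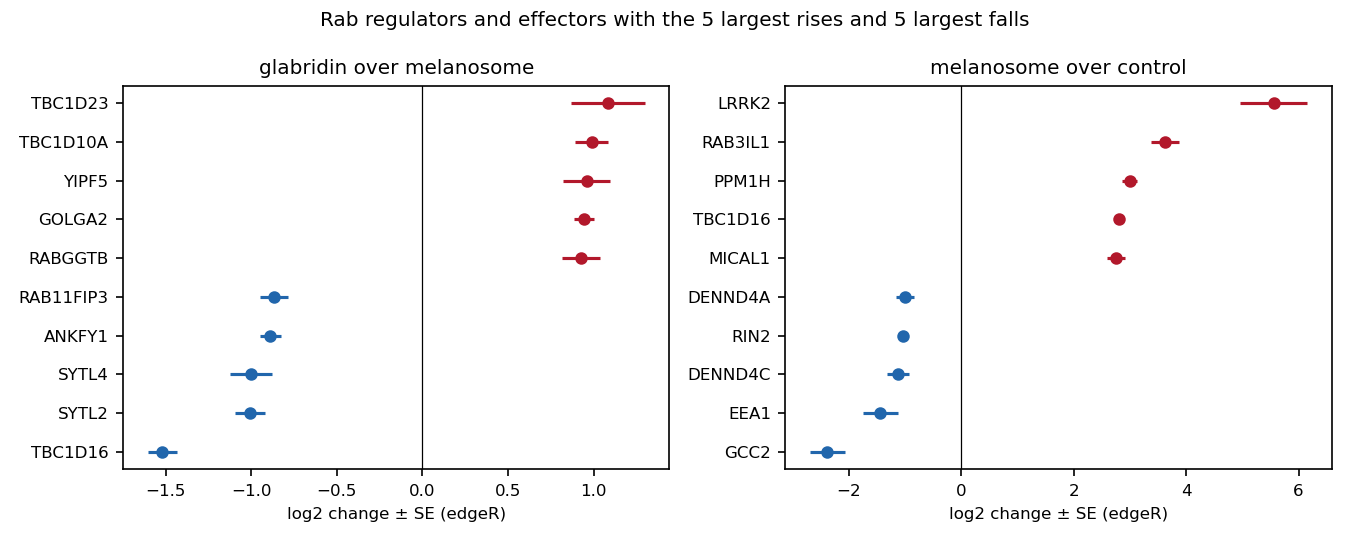
Log2 change ± SE of the Rab regulators and effectors with the 5 largest called rises (red) and 5 largest called falls (blue), for glabridin over melanosome libraries (left) and melanosome over control libraries (right). TBC1D16 stands in both panels, at -1.52 on the left and 2.81 on the right.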

How the data were processed

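The table used holds a raw count and a TPM value for every gene and library, both deposited by the authors, per the file headers. The build was hg38, per the submitters' processing notes. Libraries were poly(A)-selected, strand-specific and sequenced in pairs, per the labels' protocols. The sources used here name no aligner, counting program, strand setting or annotation. Of counts from 1 to 49, 69.9% to 72.2% were even, against 48.7% to 51.1% of counts over 500, a pattern that arises if each pair counts as 2, which the sources neither state nor deny. In that case intervals are too narrow and floors too low.

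Of 20263 identifiers, 20148 matched a symbol and 20224 had coordinates in GENCODE release 29 (GRCh38). The members and lists were chosen with earlier results of these data known. Groups and replicate numbers come from the sample titles. The test was that of edgeR 4.0.16 under R 4.3.3 (TMM factors, filterByExpr, quasi-likelihood, all 9 libraries in a single fit, no block), with SE from the F statistic. The script was tested on simulated data. Replicate pairs differed by more than sampling noise (chi-square per gene from 3.14 to 99.6). Per-library values are given for members called with a log2 change of at least 1 in size in the first 2 comparisons. They are also given for RAB1A, RAB5A, RAB5B, RAB5C, RAB7A, RAB8A, RAB9A, RAB11A, RAB11B, RAB17 and RAB36. RAB2A and other members have means, log2 changes or only the call. Regulators are named for the 5 largest called rises and falls in each of these comparisons. Of them, TBC1D16 and RABGGTB have per-library values, and the others have means or log2 changes. Against a control group with 0 counts, folds are lower bounds set by 3 counts; with 1 to 3 counts, a ratio with its exact 95% interval. Alternatives were RLE factors, library totals, no filter, a replicate block, only the 2 groups compared, DESeq2 1.42.0, limma 3.58.1 on log2(TPM + 1) and log2(TPM + 0.1), and each library left out, 17 in all.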

Additional observations from a re-analysis of the deposited data

How the results depend on the processing

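Library totals alone and limma on log2(TPM + 1) and log2(TPM + 0.1), which have no TMM scaling, moved the splits most; the cause was not tested. For melanosome over control the falls among all genes numbered 2805, 2543 and 2471 under these settings (4591 with TMM), the rises among Rab members 22, 24 and 23 (13 with TMM), their falls 4 under each (11 with TMM), and the falls among regulators 30, 27 and 27 (59 with TMM). For glabridin over melanosome they gave 1872, 1829 and 1797 rises (3301 with TMM) and 4573, 4802 and 4709 falls (2810 with TMM) among all genes, 19, 20 and 20 falls among members (7 with TMM), and 18, 14 and 14 rises (35 with TMM) and 44, 43 and 42 falls (23 with TMM) among regulators. RLE factors and DESeq2 each gave 7 falls of members for melanosome over control, and the fit on only the 2 groups compared gave 21 rises. Leaving out each library in turn gave 6 to 13 falls and 10 to 15 rises of members for melanosome over control, 6 to 11 falls and 11 to 16 rises for glabridin over melanosome, 2037 to 3956 rises among all genes and 21 to 42 rises among regulators in that comparison, the lowest of both without glabridin replicate 1. Some log2 changes not called with TMM turned in sign, and for melanosome over control RAB11B was then called under these 3 settings (adjusted p = 0.0359, 0.0139 and 0.0153) and RAB5B under the first 2 (adjusted p = 0.0488 and 0.0475). For melanosome over control these were, under library totals, log2(TPM + 1) and log2(TPM + 0.1) in turn, RAB11A (0.039, 0.050 and 0.050), RAB11B (0.16, 0.17 and 0.17), RAB1A (0.054, 0.065 and 0.066) and RAB5B (0.10, 0.12 and 0.12). RAB11B was 0.059 under RLE factors, 0.074 with only 2 groups, 0.059 in DESeq2 and -0.059 to 0.067 with a library left out; RAB5B was 0.0032, 0.018, 0.0033 and -0.074 to 0.011 under the same; RAB5C was -0.0093 to 0.11 with a library left out. For glabridin over melanosome they were RAB11A (-0.046, -0.052 and -0.052), RAB5C (-0.068, -0.082 and -0.083, and -0.026 to 0.21 with a library left out) and RAB7A (-0.059, -0.066 and -0.066). Calls were gained without a change of sign by RAB8A for melanosome over control (adjusted p = 0.00622 to 0.00800 under these settings and 0.00858 with only 2 groups) and glabridin over melanosome (0.00989 to 0.0136), by RAB5C (0.0304 with only 2 groups, 0.0331 and 0.0343 in limma), RAB5A (0.0400 with only 2 groups, 0.0288 without glabridin replicate 2, 0.0101 without glabridin replicate 3) and RAB11A (0.0318 without glabridin replicate 2) for melanosome over control. With no low-count filter, members gave 14 rises and 11 falls, and 13 rises and 7 falls. Same-numbered libraries correlated between -0.234 and 0.0503 in their deviations from the group means. These values show no deviation shared by number, but they cannot show whether same-numbered libraries were made together. With the number as a replicate block, members gave 12 rises and 11 falls for melanosome over control and 12 rises and 7 falls for glabridin over melanosome, without the calls of RAB9A and RAB10 in these comparisons. Low counts limit RAB9B and RAB42, of which no library held more than 36.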
